A study of Mus musculus with 6 samples.

Results

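GABA-A receptor subunits are the building blocks of the chloride channel that carries most fast inhibition in the cortex. This report follows 7 subunit genes, *Gabra2*, *Gabra3*, *Gabra4*, *Gabra5*, *Gabrb1*, *Gabrb2* and *Gabrd*, chosen by gene symbol among the 21667 named genes measured in the mouse somatosensory cortex (SSC). The comparison asked which of these genes differed between mice labelled as conditional knockouts of *Mef2c*, which codes for a transcription factor of cortical neurons, and their control littermates. RNA was sequenced from 3 control mice (Mef2c fl/fl) and 3 *Mef2c* cKO mice (Mef2c fl/fl with Emx1-Cre), so that the floxed *Mef2c* alleles were present in all 6. All were adult males on a mixed background of SVeV-129 and C57BL/6J, at 14 weeks for replicate 1 and 12 weeks for replicates 2 and 3 of each genotype. Cre is made from the *Emx1* gene, which is active in the lineage of forebrain excitatory neurons and of some glia, so that *Mef2c* stays intact in cortical interneurons. The mice are separate animals, and each value below is from a piece of whole SSC tissue. In such tissue, fewer cells of a type and less RNA per cell cannot be told apart.

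Each GABA-A receptor is a ring of several subunits around a central chloride pore, usually built of α and β subunits together with a γ or a δ subunit. GABA binds between α and β subunits, and the α and the γ or δ subunits set where the receptor sits and how long its currents last. Receptors with α2 or α3 together with a γ subunit are mostly found at synapses, where they carry phasic inhibition. Receptors with δ, which in the forebrain often contain α4, and most receptors with α5 lie outside synapses and carry tonic inhibition. Most of the genes stand in clusters of α, β and γ genes.

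In the mm9 build (NCBIM37), *Gabra2* (chr5:71352296-71487088) and *Gabra4* (chr5:71960973-72049547), on the minus strand, share a cluster with *Gabrb1* (chr5:72091171-72529628), on the plus strand. *Gabra5* (chr7:64663060-64765379, minus strand) lies 20.5 kb from *Gabrg3*. *Gabrb2* (chr11:42233259-42446092, plus strand) lies 98.7 kb from *Gabra6*, and *Gabra3* (chrX:69678020-69902187, minus strand) lies between *Gabre* and *Gabrq*. *Gabrd* (chr4:154759089-154772221, minus strand) stands apart from these clusters and spans 13.1 kb, whereas the others span from 88.6 to 438.5 kb. Values were counted over the exons of each gene. An exon of *Gabra5* overlaps *Gm9962* on the other strand, which had 88 to 298 reads per mouse against 1381 to 5379 for *Gabra5*. The spans of these genes share 1190 bases, and *Gabra5* has 2653 bases of merged exons. Whether the counting used strand is not given in the sources used here. How the shared bases affect the count and the level of *Gabra5* was not tested, and the low count of *Gm9962* does not bound it.

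The promoters of 3 members whose level differed between genotypes are shown so that the start regions of these genes can be compared, with the entry farther from the *Gabra4* promoter of the 2 for *Gabrb1* and the entry that holds a motif for *Gabrb2*. They are RefSeq sequences of GRCm38.p6, from 250 bases before to 50 bases after a gene start. The table of promoters matched 6 of the 7 members, and *Gabrd* was not matched. Capitals mark a MEF2 response element, the A/T-rich site that MEF2 factors bind, and the letters TATAAA, both searched on both strands.
Gabra5 promoter, chr7:57510010-57510309, minus strand: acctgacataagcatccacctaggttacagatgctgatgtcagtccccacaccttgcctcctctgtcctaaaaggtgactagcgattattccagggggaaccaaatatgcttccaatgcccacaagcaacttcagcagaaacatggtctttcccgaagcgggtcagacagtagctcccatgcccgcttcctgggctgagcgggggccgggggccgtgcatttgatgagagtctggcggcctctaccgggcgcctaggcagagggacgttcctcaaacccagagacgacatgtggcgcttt
Gabrb1 promoter, chr5:71699682-71699981, plus strand: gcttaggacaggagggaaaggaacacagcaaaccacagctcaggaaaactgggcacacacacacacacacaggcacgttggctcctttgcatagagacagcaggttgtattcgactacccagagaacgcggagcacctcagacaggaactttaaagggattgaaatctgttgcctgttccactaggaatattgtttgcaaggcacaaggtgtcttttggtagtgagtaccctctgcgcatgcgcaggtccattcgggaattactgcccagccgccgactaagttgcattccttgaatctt
Gabrb2 promoter, chr11:42420190-42420489, plus strand: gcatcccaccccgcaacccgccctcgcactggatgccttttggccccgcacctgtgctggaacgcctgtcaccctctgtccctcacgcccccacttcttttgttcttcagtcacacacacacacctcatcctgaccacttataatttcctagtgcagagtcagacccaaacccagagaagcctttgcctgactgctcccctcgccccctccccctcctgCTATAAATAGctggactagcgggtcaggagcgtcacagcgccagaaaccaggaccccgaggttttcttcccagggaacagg
In the *Gabrb2* promoter the capitals begin 31 bases before the gene start. There the MEF2 response element and TATAAA share letters. Among the 10 promoters of members in the table, 1 held a MEF2 response element and 3 held TATAAA, those of *Gabrb2* and *Gabra3*. The 2 promoters of *Gabra3* overlap and hold the same TATAAA site, which is thus counted in both. Over all 32851 promoters of the same length, 3.19% held a MEF2 response element and 13.6% held TATAAA. The windows of *Gabra5* and *Gabrb1* held neither, which says only that these letters are not in these windows. A match is a description of the letters and not of a bound site.

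The depth was 19326365 to 54128334 reads per mouse, and all 7 members had at least 594 reads in every mouse. The deposited values are RPKM, read counts scaled by gene length and read total, but the length that a gene was divided by differed between the files. *Gabra5*, for example, was divided by lengths of 5477 to 536934 bases. Read counts were therefore recovered and expressed as CPM, the share of the read total of a mouse scaled to 1000000 reads, without a length. Pearson's r of log2 values across the 14582 tested genes, which are not independent of each other, lay at 0.992 to 0.995 for mice of the same genotype and at 0.978 to 0.981 for mice of different genotypes. *Mef2c*, the targeted gene, had 790.8 ± 16.4 CPM in control mice and 1325 ± 126 CPM in the mice labelled *Mef2c* cKO (SD, n = 3 each), which is 0.74 ± 0.075 higher on the log2 scale (SE, limma, adjusted p = 1.8e-04). These reads are counted over the whole gene, outside the floxed part too, so they do not check the deletion. Every direction below is between mice as labelled. Among the markers of cortical excitatory neurons, *Slc17a7*, a vesicular glutamate transporter, was at 1190 CPM in control and 1240 CPM in cKO mice. Others were far lower, such as *Neurod6* at 41.6 and 105 CPM, and several differed between genotypes, as given below.

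The subunits differed in level within the control cortex. In CPM per kilobase of merged exons, *Gabra3* was the highest of the 7 at 42.7 ± 0.47, followed by *Gabrb2* at 33.9 ± 1.5 and *Gabra2* at 30.7 ± 1.1 (SD, n = 3). *Gabra4*, at 26.3 ± 1.0, and *Gabrd*, at 25.0 ± 1.6, overlapped between mice. *Gabrb1*, at 17.3 ± 1.7, and *Gabra5*, at 14.8 ± 1.3, were the lowest and also overlapped. Each of the other neighbours in this order was separated in all control mice. In the cKO mice *Gabra3* was again highest at 44.4 ± 4.2 per kilobase, but *Gabra5* was next at 34.9 ± 2.3 and *Gabrd* was last at 10.4 ± 1.1. Between these, the ranges of *Gabra5* and *Gabra2*, *Gabra2* and *Gabrb2*, *Gabrb2* and *Gabra4*, and *Gabra4* and *Gabrb1* overlapped. With the length of the longest transcript instead, *Gabrb2* was at 43.9 in control mice and overlapped *Gabra3*, and *Gabrd* stood above *Gabra4* with overlap. In the cKO mice that length put *Gabrb2*, at 35.7 ± 1.5, before *Gabra5*, at 34.9 ± 2.3, with overlap, so the second place there depends on the length used. Levels per length depend on the exons assumed, whereas the differences between genotypes do not.

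**Figure D1:**
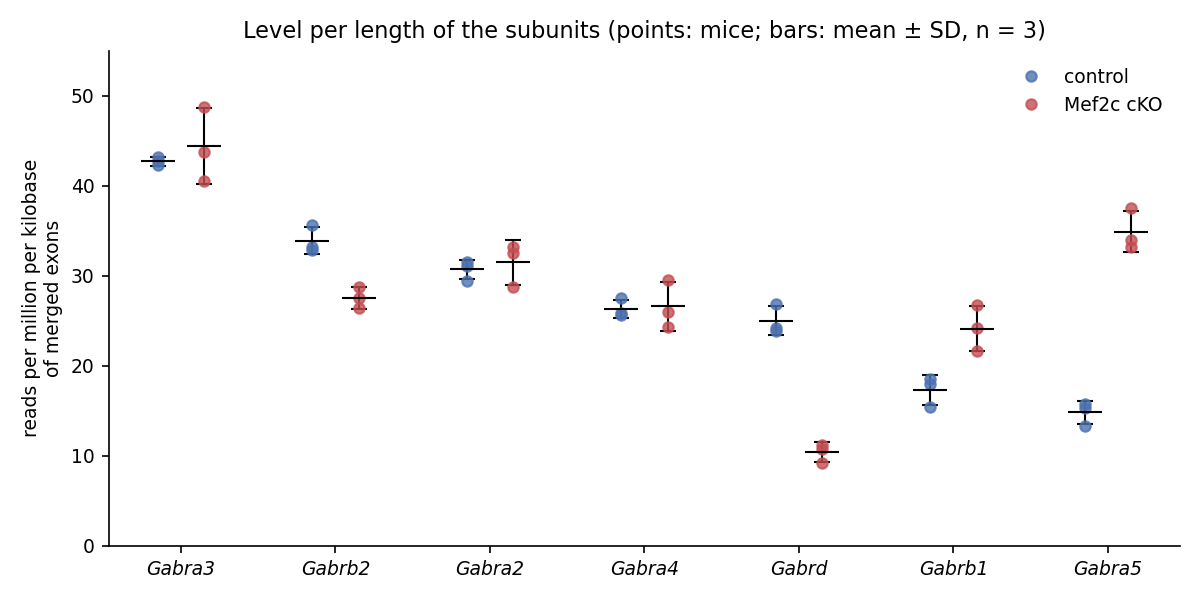
Level of each subunit in CPM per kilobase of merged exons, ordered by the control mean, with a point for each mouse and bars for the mean ± SD of 3 mice. *Gabra5* moves from the lowest place in control mice, at 14.8, to 34.9 in cKO mice, and *Gabrd* from 25.0 to 10.4.

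Of the 7 members, 2 rose and 2 fell in the mice labelled *Mef2c* cKO, and 3 did not pass the test. *Gabra5* rose 2.36-fold and *Gabrb1* 1.39-fold, *Gabrd* fell to 0.414 of its control level and *Gabrb2* to 0.812, while *Gabra2*, *Gabra3* and *Gabra4* stayed within 1.04-fold of it. A gene was called when limma's adjusted p was under 0.05 and its absolute log2 fold change above 0.3. By this rule 13.6% of the 14582 tested genes were called, 5.87% higher and 7.78% lower. The 4 called members are also the 4 whose genotypes did not overlap, which held for 33.8% of all tested genes. The median log2 fold change of the 7 was 0.03, beside 0.008 over all tested genes.

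**Figure D2:**
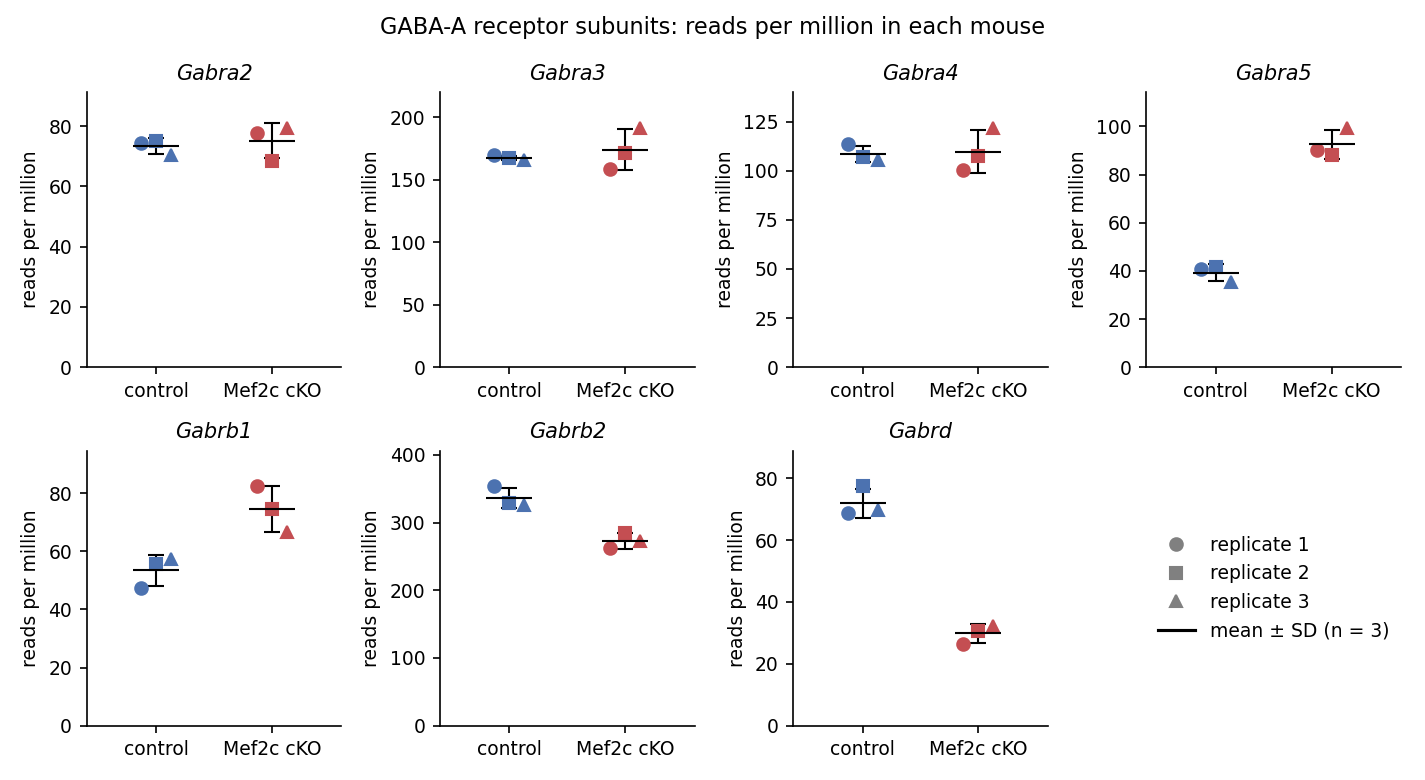
CPM of the 7 subunits in each of the 6 mice, on axes that begin at 0, with bars for the mean ± SD of 3 mice. Control and cKO mice are separated for *Gabra5*, *Gabrb1*, *Gabrb2* and *Gabrd*, and overlap for *Gabra2*, *Gabra3* and *Gabra4*.

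Among the α subunits, *Gabra5* codes for α5, the subunit of mostly extrasynaptic receptors that is best known from hippocampal pyramidal cells and the deep layers of the cortex. It was at 40.6, 41.8 and 35.4 CPM in control replicates 1, 2 and 3 and at 90.1, 88.1 and 99.4 CPM in cKO replicates 1, 2 and 3. All 3 cKO mice lay above 88 and all 3 controls below 42. The log2 fold change was 1.24 ± 0.081 (SE, n = 3 against 3, limma, adjusted p = 1.5e-05). Of the 14582 tested genes, 117 had a higher log2 fold change.

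*Gabra2* codes for α2, a synaptic subunit common at the axon initial segment of pyramidal cells. Its level was 74.5, 75.3 and 70.4 CPM in the controls and 77.8, 68.6 and 79.5 CPM in the cKO mice, so that the lowest and the highest mouse were both cKO. The log2 fold change of 0.03 had a 95% interval of -0.13 to 0.19 (limma, adjusted p = 0.801). *Gabra3*, the X-linked gene of the synaptic subunit α3, was at 169.5, 167.4 and 165.9 CPM in controls and 158.9, 171.8 and 191.6 CPM in cKO mice. Its controls lay within 4 CPM of each other and its cKO mice on either side of them. The log2 fold change was 0.05, with an interval of -0.11 to 0.21 (limma, adjusted p = 0.695). *Gabra4* codes for α4, the usual partner of δ in the forebrain. It was at 113.4, 107.0 and 105.5 CPM in controls and 100.2, 107.3 and 121.8 CPM in cKO mice, again with cKO mice at both ends. Its log2 fold change was 0.01, with an interval of -0.16 to 0.18 (limma, adjusted p = 0.948). For these 3 genes the intervals left out any change as large as the cut-off of 0.3, in either direction.

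Among the β subunits, *Gabrb1*, the gene of β1, was at 47.5, 55.5 and 57.3 CPM in the controls and at 82.4, 74.7 and 66.7 CPM in the cKO mice. The lowest cKO mouse was above the highest control by less than 10 CPM, and both genotypes were spread. The log2 fold change was 0.48 ± 0.096 (SE, limma, adjusted p = 0.008), and the call was lost with no filter on CPM (adjusted p = 0.093). *Gabrb2*, the gene of β2, went the other way. It was at 353.5, 329.5 and 326.6 CPM in controls and 261.9, 285.1 and 272.8 CPM in cKO mice, and every control lay above every cKO mouse. Its log2 fold change was -0.30 ± 0.059 (SE, limma, adjusted p = 0.007), at the edge of the cut-off of 0.3. Leaving out control replicate 1, cKO replicate 1 or cKO replicate 3 brought it to -0.26, -0.27 and -0.30, inside the cut-off with adjusted p of 0.033, 0.029 and 0.023, and with all 6 mice the call was also lost with pseudocounts of 0.5 and 1. The call of *Gabrb2* thus depends on these mice and on the pseudocount.

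*Gabrd* codes for δ, which takes the place of γ in extrasynaptic receptors of high GABA sensitivity. It was at 68.8, 77.3 and 69.6 CPM in the controls and at 26.4, 30.7 and 32.3 CPM in the cKO mice. The highest cKO mouse was thus below 33 CPM and the lowest control above 68. The log2 fold change was -1.27 ± 0.088 (SE, limma, adjusted p = 1.9e-05), and 207 of the 14582 tested genes had a lower one. *Gabra4*, with which δ assembles, is described above and did not pass the test. An exact two-sided permutation test gave p = 0.1 for each of *Gabra5*, *Gabrb1*, *Gabrb2* and *Gabrd* on its own, the smallest p that 3 mice against 3 allow.

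Ratios between subunits within a mouse do not depend on the read total. The log2 ratio of *Gabra5* to *Gabrd*, the genes of 2 extrasynaptic subunits, was -0.76, -0.89 and -0.98 in the controls and between 1.52 and 1.77 in the cKO mice. It was thus negative in all 3 control mice and positive in all 3 cKO mice, a 5.71-fold difference in the ratio. *Gabrd* to *Gabra4* fell from a mean log2 ratio of -0.60 ± 0.13 to -1.88 ± 0.07 (SD, n = 3), and the genotypes did not overlap. *Gabra5* to *Gabra4* went from -1.47 ± 0.11 to -0.24 ± 0.08, and *Gabrb1* to *Gabrb2* from -2.66 ± 0.21 to -1.88 ± 0.19, also without overlap. *Gabra2* to *Gabra4* (difference 0.02) and *Gabra3* to *Gabra2* (difference 0.02) overlapped between genotypes. For each of the 4 separated ratios the exact permutation test gave p = 0.1, the smallest possible, and 0.15 after adjustment over the 6 ratios, so none could pass.

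Of 9 other GABA-A receptor subunit genes read beside the members, 3 had enough reads to be tested, and limma and voom called 0 of them, with 0 at an unadjusted p under 0.05. *Gabrg1*, *Gabrg3* and *Gabrr2* were at -0.22, -0.20 and -0.15 on the log2 scale (limma, adjusted p = 0.179, 0.375 and 0.744), and their genotypes overlapped. *Gabra6*, *Gabre*, *Gabrp*, *Gabrq*, *Gabrr1* and *Gabrr3* had at most 31 reads in any mouse and were not tested.

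Neighbours in a cluster had different values. On chromosome 5 *Gabrb1* was higher in the cKO mice, while *Gabra4*, whose gene begins 41.6 kb away on the other strand in the mm9 annotation, and *Gabra2* were not called. The *Gabrb1* promoter that is not printed above lies closer. It is at chr5:71657671-71657970 in GRCm38.p6, beside the *Gabra4* promoter at chr5:71658259-71658558. On chromosome 7 *Gabra5* had a log2 fold change of 1.24, beside -0.20 for *Gabrg3*. Differences between neighbours in these fold changes were not tested.

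**Figure D3:**
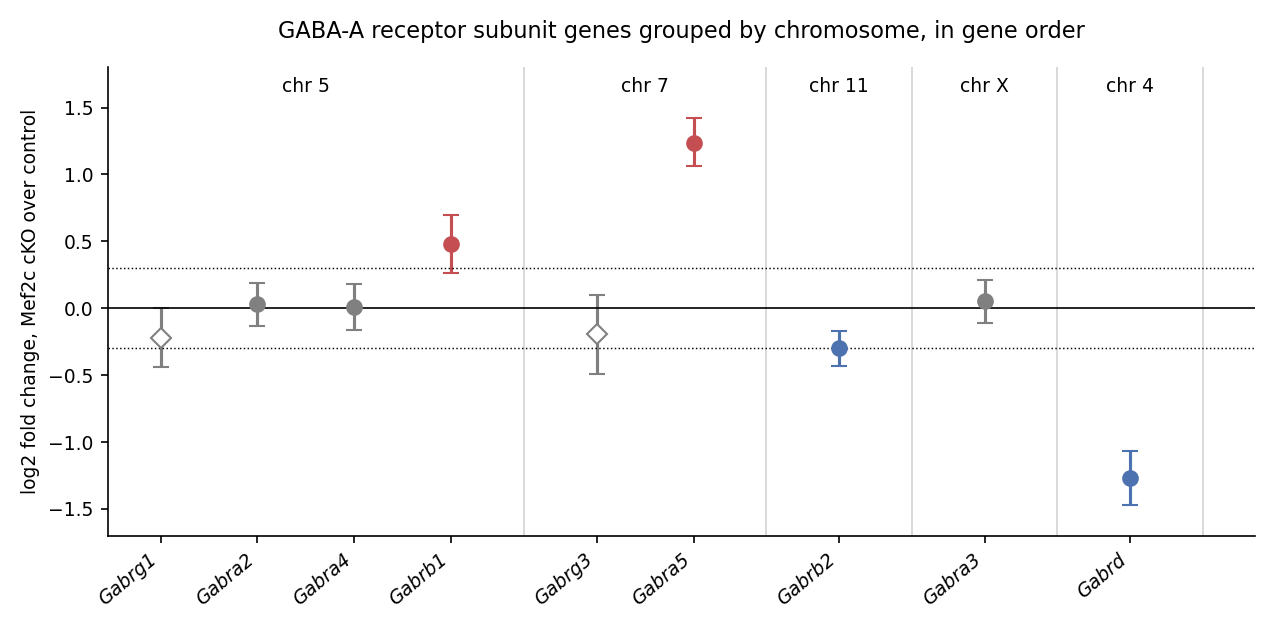
Log2 fold change, cKO over control, with its 95% interval (limma, 3 mice against 3) for the 7 members and for *Gabrg1* and *Gabrg3*, in gene order on chromosomes 5, 7, 11, X and 4. Filled circles are the members and open diamonds the other genes, red is higher, blue lower and grey not called, and dotted lines mark the cut-offs at 0.3 and -0.3.

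Other genes of inhibitory signalling, GABA-B and glycine receptors among them, were read from lists by role. The 7 lists held 57 tested genes beside the members, the 3 subunits above included. Of the 57, 1 was called higher and 3 lower, or 7.02%, beside 13.6% over all tested genes. Among 10 genes of the inhibitory postsynaptic scaffold (median log2 fold change 0.01), *Shisa7*, a receptor-associated protein, was higher at 0.34 ± 0.08 (adjusted p = 0.019) and *Slitrk3*, an adhesion protein of inhibitory synapses, lower at -0.36 ± 0.08 (adjusted p = 0.017). The call of *Slitrk3* was lost without control replicate 1 or cKO replicate 1, and that of *Shisa7* without control replicate 1 or 3 or cKO replicate 1. Both were also lost with no filter on CPM (adjusted p = 0.109 and 0.116) and with no variance trend (0.055 and 0.062). *Gphn*, which codes for gephyrin, the main scaffold of these synapses, was at 0.19 (adjusted p = 0.132). Of the 14 trafficking genes limma and voom called 0 (median 0.05), with 5 at an unadjusted p under 0.05, and limma called 1 without cKO replicate 1. In the list of GABA synthesis, release and uptake, 0 of 8 genes were called by limma or voom and 4 had an unadjusted p under 0.05 (median -0.01), with *Gad1* at -0.26, *Gad2* at 0.16 and *Slc32a1*, the vesicular GABA transporter, at 0.04 (adjusted p = 0.132, 0.112 and 0.807). Without control replicate 3 or cKO replicate 2, 1 gene of this list was called. Over the settings of the recovered counts *Gad1* was at -0.36 to -0.16, with a limma adjusted p as low as 0.036.

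In the list of chloride and bicarbonate handling, 1 of 12 tested genes was called (median 0.01). *Slc12a5* codes for KCC2, the transporter that lowers chloride in mature neurons. It was at 629 ± 12 CPM in controls and 502 ± 18 CPM in cKO mice, which is -0.33 ± 0.06 on the log2 scale (SE, limma, adjusted p = 0.003). Among the settings of the recovered counts its call was lost only without cKO replicate 2. *Slc12a2*, the gene of the chloride importer NKCC1, was at 0.06 (adjusted p = 0.768). Of 6 genes of GABA-B receptors, the metabotropic receptors for GABA, and their KCTD partners, *Kctd16* was lower at -0.62 ± 0.14 (limma, adjusted p = 0.017, up to 0.151 over the settings), and *Gabbr1* and *Gabbr2* were at -0.11 and -0.21 (adjusted p = 0.295 and 0.065). The call of *Kctd16* was lost with no filter on CPM, with no variance trend and with a replicate block (limma, adjusted p = 0.151, 0.055 and 0.055). Of 4 tested glycine receptor genes limma and voom called 0, with 1 at an unadjusted p under 0.05 (median -0.31).

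Several cell type markers moved with the genotype, and their part in the results above was not tested. Of 8 upper-layer markers 7 were lower and 1 higher (median -1.57), with *Scnn1a* at -2.56, *Rasgrf2* at -1.96 and *Rorb* at -1.74, and *Mdga1*, the one that was higher, at 2.75. Their summed level was 832 to 919 CPM in controls and 410 to 458 CPM in cKO mice. Of 11 deep-layer markers 2 were higher and 2 lower (median 0.23), with *Nxph4* at 1.24, *Ntsr1* at 0.67, *Fezf2* at -0.46 and *Etv1* at -0.43, and their summed level overlapped, at up to 459 CPM in controls and 396 to 496 CPM in cKO mice. Without cKO replicate 2, 8 of the 11 were called. The call of *Fezf2* was lost without control replicate 1 or 2 or cKO replicate 2, and that of *Etv1* without cKO replicate 1 or 3. Of 10 markers of excitatory neurons 4 were higher and 2 lower, with *Neurod6* at 1.34, *Tbr1* at 0.69, *Neurod2* at 0.68 and *Emx1* at -1.79, and the summed levels were 5750 to 6870 and 5980 to 7060 CPM. The cKO mice are heterozygous for the Cre insertion in the *Emx1* gene, and the control mice do not carry it. How much of the *Emx1* difference comes with the altered allele, and how much with a change in these neurons, cannot be told apart and was not tested. Among 12 interneuron markers *Sst* and *Npy* were higher at 0.57 and 0.54 and *Pvalb* lower at -0.80, and their summed level was 818 to 907 CPM in controls and 853 to 925 CPM in cKO mice. The call of *Sst* was lost without any 1 control or cKO replicate 2, and that of *Npy* without control replicate 1 or 2 or cKO replicate 1 or 2. With no filter on CPM (adjusted p = 0.224 and 0.179) and no variance trend (0.095 and 0.072) both were lost as well. The calls of *Fezf2* and *Etv1* were lost in these settings too, and those of *Tbr1* and *Nxph4* with no filter.

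Some genes listed as markers of tissue next to the SSC also differed. Whether their reads came from such tissue or from the SSC itself was not tested. Of 7 tested markers of hippocampus and dentate gyrus 3 were higher and 1 lower (median 0.23), with *Tdo2* at 3.36, *Fibcd1* at 2.27, *Wfs1* at 1.18 and *C1ql2* at -1.40, and their summed level was 73.7 to 86.6 CPM in controls and 141 to 259 CPM in cKO mice. *Tdo2* was at most 0.47 CPM in controls, below the filter of 0.5. It entered the test only through the cKO mice, at 4.06 to 6.1 CPM. The size of its change depends on the pseudocount, with 2.6 at 0.5 and 2.08 at 1. *Prox1*, the marker that defines granule cells of the dentate gyrus, was at 8.17 ± 1.6 and 9.57 ± 1.8 CPM. Of 6 tested thalamus markers *Prkcd* was higher at 0.55 and *Rora* lower at -1.14, with *Gbx2* at most 0.0305 CPM. The summed level of this list was 82.6 to 128 CPM in controls and 62.4 to 67.9 CPM in cKO mice. Most of the spread lay in *Rora*, at 54.0 to 99.4 CPM in controls and 26.3 to 35.9 CPM in cKO mice. The call of *Prkcd* was lost without control replicate 1 or 3 or cKO replicate 2 or 3. Of 6 striatum markers limma and voom called 0, with 0 at an unadjusted p under 0.05, but 3 were called without cKO replicate 2. Their summed level was 134 to 190.0 CPM in controls and 62.5 to 233 CPM in cKO mice. Of 10 astrocyte markers *Gfap* at 1.37 and *Aqp4* at 0.73 were higher and *Aldh1l1* at -0.39 was lower, with summed levels of 5050 to 5350 and 4480 to 4760 CPM. All 10 oligodendrocyte markers had a log2 fold change above 0 (median 0.53), 9 of them at an unadjusted p under 0.05. Of these 2 were called, *Cldn11* at 0.77 and *Mobp* at 0.64, with summed levels of 3380 to 5560 and 5470 to 7060 CPM, and 8 were called without control replicate 3 and 6 without cKO replicate 1. *Mobp* lost its call, leaving 1, without control replicate 1 or 2 or cKO replicate 2 or 3. With no filter on CPM the calls of *Prkcd*, *Rora*, *Wfs1*, *Aldh1l1*, *Cldn11* and *Mobp* were lost, and with no variance trend those of *Prkcd* and *Mobp*. Of the 10 microglia and 10 endothelial markers limma and voom called 0, while 3 and 1 had an unadjusted p under 0.05, with summed levels of 273 to 307 and 262 to 297 CPM in controls and 266 to 276 and 254 to 266 CPM in cKO mice.

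For each called member, the genes whose log2 CPM ran most alike over the 6 mice were read out among 14581 others, by Pearson's r as a description. The 6 points fall into the 2 genotypes and share libraries, so that r mostly follows the difference between genotypes. For *Gabra5* these were *Rdx* (r = 0.9995), *Fancd2* (0.9985) and *Alcam* (0.9981), of which *Rdx*, the gene of radixin and a member of the scaffold list, had a log2 fold change of only 0.25. For *Gabrd* they were *Nrg1* (0.9983), *Dtna* (0.9982) and *Plekha4* (0.998), with log2 fold changes of -1.15, -0.36 and -1.41. For *Gabrb2* they were *Ugcg* (0.9979), *Lrrc75a* (0.9971) and *Slc35g2* (0.9969), and for *Gabrb1* *Fam213a* (0.9968), *Mcm10* (0.9948) and *Dynlt1f* (0.9938). An r above 0.99 was reached by 47 genes for *Gabra5*, 70 for *Gabrd*, 14 for *Gabrb2* and 5 for *Gabrb1*, so that a high r is not particular to the genes named.

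The deposited RPKM, fitted as they stand, called 14 of 7974 tested genes (0.176%) and 0 of the 7 members, with 0 at an unadjusted p under 0.05. Standard errors of the members were 1.61 to 1.68 on the log2 scale there, because the lengths divided by differed between mice. Within the 6 mice the deposited RPKM of *Gabrb1* ranged over 224-fold and that of *Gabra2* over 16.8-fold. *Gabra5* was at -0.33 (limma, adjusted p = 0.976), against the direction of the recovered counts.

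**Figure D4:**
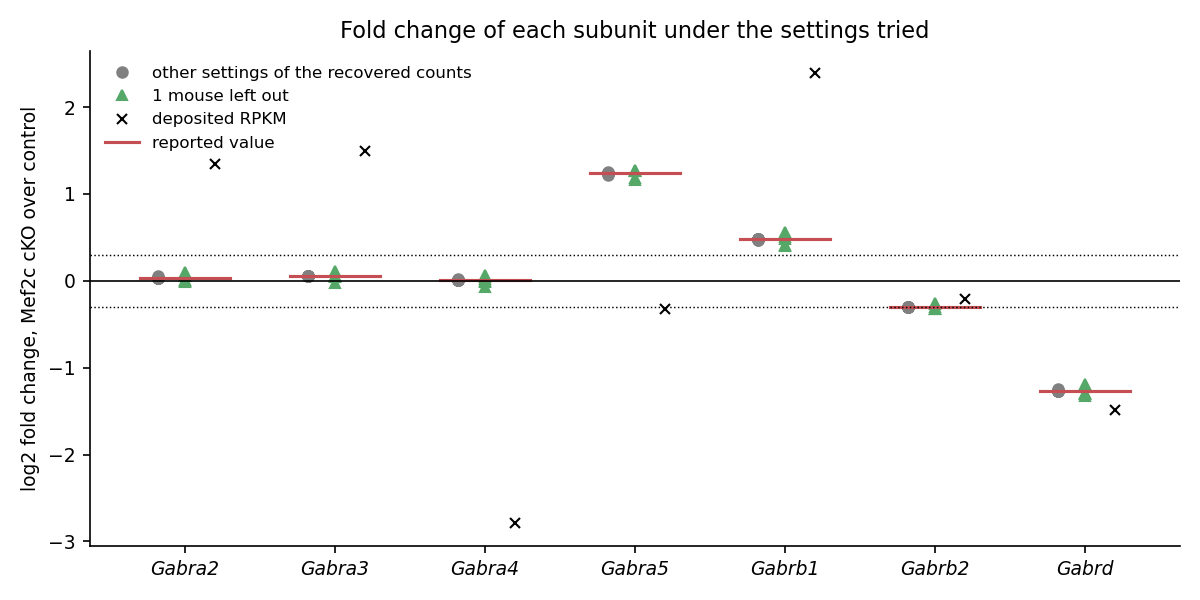
Log2 fold change of each member, cKO over control, as reported (red line), under the other settings of the recovered counts (grey circles), with 1 mouse left out (green triangles) and from the deposited RPKM as they stand (crosses). Dotted lines mark the cut-offs at 0.3 and -0.3. Over the settings of the recovered counts *Gabra5* stays between 1.16 and 1.28 and *Gabrd* between -1.33 and -1.19.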

How the data were processed

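RNA from the SSC of 3 control and 3 *Mef2c* cKO mice, grouped by the sample labels, was sequenced from polyA-selected, directional libraries. The authors mapped the reads to mm9 (TopHat, Bowtie), used HTSeq to count reads per gene, and deposited these as RPKM values in 1 table per mouse. In each table the length divided by follows the place of the gene in the order of its Entrez gene ID, in cycles of 65 to 296 lengths. From this order and the value steps the read total and whole counts were recovered for at least 99.6% of the values above 0 of the 21667 named genes, a method worked out after seeing the data. The 92 rows without a name were left out. In 6 simulated tables all totals were found and 100% of the recovered counts were right. These tables were drawn with the same gene order and cycle sizes. They check the code, and not whether the deposited values follow this scheme.

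CPM were counts over the recovered total. Genes with CPM above 0.5 in every mouse of a genotype entered limma 3.58.1 (R 4.3.3, variance trend) on log2(CPM + 0.1), with Benjamini-Hochberg adjustment over all 14582 genes, and the pseudocount understates changes of low genes. On simulated counts of 14603 genes for cKO against control, 99 tested genes were changed by 0.5 and 98 by 1 on the log2 scale. Of these, 86.9% and 98% were called, with 9 unchanged genes called. These figures hold for the spread between mice that was drawn there. How they would differ for genes that vary more between mice was not tested. The members and lists were chosen with earlier results of these data known. Named were all members, each tested gene of the list of other subunits, from which some genes are not reported here, Mef2c, of each list up to 4 called genes with the largest change, 8 defining genes (Gad1, Gad2, Slc32a1, Gphn, Gabbr1, Gabbr2, Slc12a5, Slc12a2), and for each called member the 3 genes most alike. *Slc17a7*, *Gm9962*, *Prox1* and *Gbx2* were named after their values were seen. Lengths are merged exons of the gencode annotation of NCBIM37 (mm9). Alternatives were pseudocounts of 0.5 and 1, other filters, no trend, median-ratio scaling, voom, deposited RPKM, age, a replicate block and leaving out each mouse. Python 3.11.15, numpy 2.4.6, pandas 2.3.3 and matplotlib 3.10.9 were used.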

Additional observations from a re-analysis of the deposited data

How the results depend on the processing

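Over the 15 other settings of the recovered counts, *Gabra5* (1.16 to 1.28) and *Gabrd* (-1.33 to -1.19) kept their calls, and *Gabra2*, *Gabra3* and *Gabra4* were never called. *Gabrb1* (0.40 to 0.56) lost its call with no filter on CPM (0.48, adjusted p = 0.093). *Gabrb2* (-0.33 to -0.26) lost it with pseudocounts of 0.5 and 1, where -0.30 fell just inside the cut-off, and without control replicate 1, cKO replicate 1 or cKO replicate 3. Leaving out 1 mouse called 1651 to 1860 genes and 3 to 4 members. No filter on CPM called 1176 of all genes, and the deposited RPKM 14, with 0 members. There *Gabrb1*, *Gabrb2* and *Gabrd* were at 2.39, -0.21 and -1.49 without a call, and no member had an unadjusted p under 0.05. Of the called genes *Gabra5* (-0.33), *Shisa7* (-1.02), *Sst* (-1.38), *Npy* (-0.17) and *Cldn11* (-0.59) were of the other sign there, in values whose divisor differed between mice, as were *Gabra4* (-2.79), *Gad1* (1.03), *Gad2* (-0.14), *Gphn* (-1.76), *Gabbr2* (0.11) and *Slc32a1* (-0.41) among genes not called. The replicate block called 1690 genes and the same number of members, 4. With it *Kctd16*, *Slitrk3*, *Sst*, *Npy* and *Mobp* lost their calls (limma, adjusted p = 0.055, 0.053, 0.059, 0.058 and 0.052). Same-numbered mice did not deviate together (r of -0.176, -0.108 and -0.081, no mouse correlating best with its own number), so the numbers were not taken as pairs. With age as a covariate 1863 genes and 4 members were called. The 6 ratios kept their values within 1 SD under a pseudocount of 1 and without any 1 mouse. Of 31 other called genes named, 15 kept the call in all of these settings and 16 lost it in at least 1. With 3 mice a genotype, a member's standard error was 0.059 to 0.096, which limits what can be seen for small changes. The intervals are for the mean difference between genotypes, and the SD gives the spread between mice.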
